A study of Mus musculus with 2 samples.

Results

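The genes described here are 10 genes of antigen presentation on major histocompatibility complex (MHC) class II, taken by symbol from the 24346 genes listed in bulk mRNA sequencing of neonatal mouse skin wounds. They comprise the class II chains H2-Aa, H2-Ab1 and H2-Eb1, the peptide loading genes Cd74, H2-DMa, H2-DMb1 and H2-DMb2, the transactivator Ciita, the costimulatory ligand Cd86, and Cd207, which encodes langerin of Langerhans cells. The rule names the genes and uses no measured value, but the genes were chosen with earlier results of these data known. One library came from wild-type (WT) wounds and one from wounds of PU.1-/- littermates (labelled PU.1 KO), both C57BL/6J, wounded through the dorsal skin as 1-day-old pups and harvested 24 h later. The methods describe incisions and the design text excisional wounds, and neither gives the number or sex of the pups pooled, if any. PU.1-/- mice lack the transcription factor PU.1 in the whole body and are used as a model of wounds without macrophages, neutrophils, mast cells and T cells.

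With 1 library per genotype there was no replicate error and no test, so that genotype cannot be told apart from pup or library. Values are FPKM, fragments per kilobase of transcript and per fixed number of mapped fragments, which are scaled by length and can be compared between genes. Depth was estimated from the steps in low FPKM values at 13780000 fragments in WT and 15780000 in PU.1-/-. Spi1, the gene of PU.1, had 35.4 FPKM in WT and 1.45 in PU.1-/- (about 825 and 39 reads), or 4.12% of the WT level (95% counting interval 2.91 to 5.68%). The libraries also differed in sex chromosome genes, with Xist at 0 and 9.48 FPKM and with the Y-linked Eif2s3y at 38.5 and 0 FPKM in WT and PU.1-/-, so that sex and genotype cannot be told apart.

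Class II molecules are pairs of an α and a β chain that show peptides from endosomes to CD4+ T cells. The invariant chain, encoded by Cd74, fills the groove until cathepsins cut it down, and H2-DM then exchanges the remaining fragment for antigen peptide. Expression is largely restricted to dendritic cells, B cells, macrophages and, in the epidermis, Langerhans cells, whose precursors settle before birth and gain class II and langerin mostly in the days after it. CIITA switches the genes on through a module of X and Y boxes bound by RFX, CREB and NF-Y. C57BL/6 mice carry a defective E α gene, so that the H2-Eb1 chain has no partner there.

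Of that module, the part found by exact letters in several promoters was the Y box. Stretches are shown for the genes with a match to the longer Y box TGATTGG, a pattern chosen after the promoters were seen. The RefSeq table of promoters (GRCm38.p6, the assembly of mm10) held 6 of the 10 genes and not H2-Ab1, Cd74, Ciita or Cd86. Stretches of 70 bases upstream of the start are printed 5′ to 3′ on the strand of the gene, with capitals for the longer Y box and for the X box core AGCAAC.
H2-Aa (minus strand, chr17:34287857-34287926): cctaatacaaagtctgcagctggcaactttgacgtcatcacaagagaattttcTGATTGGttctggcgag
H2-Eb1 (plus strand, chr17:34305753-34305822): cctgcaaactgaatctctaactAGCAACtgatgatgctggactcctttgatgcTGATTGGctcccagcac
H2-DMb1 (plus strand, chr17:34153075-34153144): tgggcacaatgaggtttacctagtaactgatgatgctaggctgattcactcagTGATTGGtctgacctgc
H2-DMb2 (plus strand, chr17:34145104-34145173): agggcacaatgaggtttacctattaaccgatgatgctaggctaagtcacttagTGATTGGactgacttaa

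Among all 32851 promoters of the table, 7.23% held the longer Y box in the 250 bases before the start on either strand, and 33.8% held its core ATTGG, which lies within it. The core was also found in 1 of the 2 listed promoters of H2-DMa. The X box core AGCAAC (12.2% of promoters) matched exactly only in H2-Eb1 among these genes. Variants of it were not searched for, and the stretches printed hold GGCAAC in H2-Aa and AGTAAC in H2-DMb1, each 1 letter away. The PU.1 core GAGGAA (23.3%) matched in H2-DMb1 and Cd207. These are matches of letters and say nothing on binding.

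Of the 10 genes, 7 were at least 2-fold lower in the PU.1-/- wound (values below 0.1 FPKM raised to 0.1), against 4.34% of all genes listed. None was at least 2-fold higher, where the background was 2.32%. Their log2 ratios of PU.1-/- to WT had a median of −2.40, against −0.01 for the 16298 genes that reached 0.1 FPKM in either library. Of the 7 genes with at least 1 FPKM in WT, 6 were lower, while 4.54% of the 12987 genes at that level were. The other lower gene, H2-DMb2, had only about 4 reads in WT and 0 in PU.1-/-. The remaining genes were H2-DMa, which lay within 2-fold, and Ciita and Cd207, which were below 0.1 FPKM in both libraries. In bulk tissue, fewer cells of a type and less RNA per cell cannot be told apart.

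**Figure D1:**
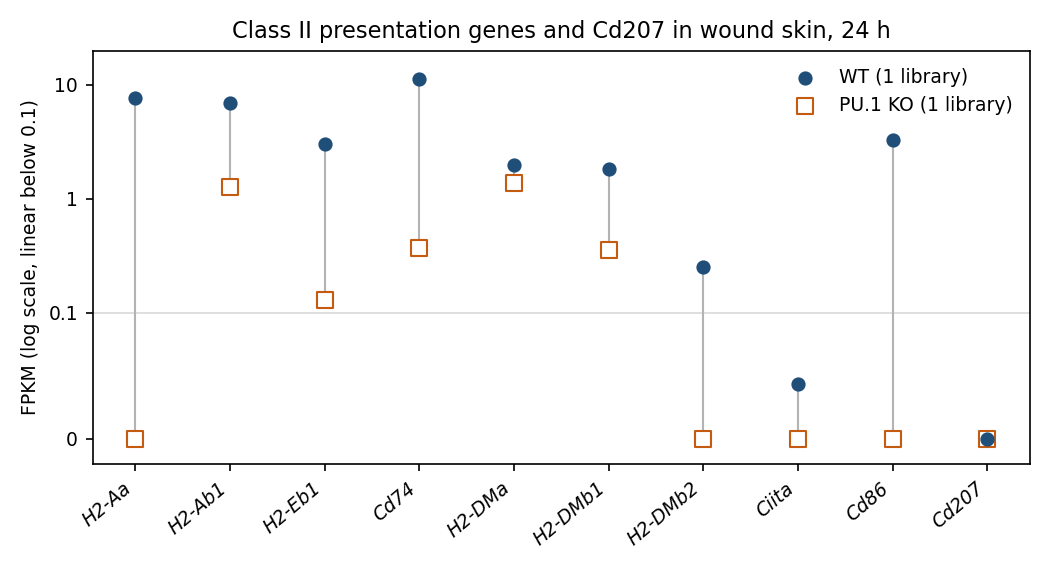
FPKM of the 10 genes (log scale, linear below 0.1) in the WT library (filled circles) and the PU.1-/- library (open squares), with a line joining both values of a gene. Cd74 was the highest gene in WT at 11.2 FPKM, H2-Aa and Cd86 were listed at 0 in PU.1-/-, H2-DMa lay at 1.99 and 1.39 FPKM, and Cd207 lay at 0 in both.

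The chains that form the class II molecule were present at low to moderate levels in the WT wound. H2-Aa, the A α chain (chromosome 17, 34282744 to 34287823), had 7.66 FPKM in WT and was listed at 0 in PU.1-/-. This corresponds to about 98 reads and none (an exact 0 in such files can also be a failed estimate), and 3 reads would have been worth 0.205 FPKM in the PU.1-/- library, or 2.67% of the WT level. H2-Ab1, its β chain partner (34263227 to 34269418), had 6.91 FPKM in WT and 1.28 in PU.1-/-. It was therefore 5.40-fold lower (interval 3.31 to 9.24), from about 94 and 20 reads. H2-Eb1, the E β chain (34305867 to 34316674), had 3.02 and 0.129 FPKM, from 61 and 3 reads, a 23.4-fold difference (7.62 to 116).

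The ratios between the chains differed between the libraries, on few reads in PU.1-/-. H2-Aa and H2-Ab1 were nearly level in WT, at a ratio of 1.11, whereas the PU.1-/- library held reads of H2-Ab1 and none of H2-Aa. H2-Ab1 was 2.29 times the level of H2-Eb1 in WT and 9.91 times in PU.1-/-. The level of H2-Ab1 left in PU.1-/-, 18.5% of WT with a counting interval of 10.8 to 30.3%, lay above the 3-read limit of H2-Aa, and its interval overlapped that of H2-Eb1 (0.859 to 13.1%). Summed over the 3 chains, 17.6 FPKM in WT became 1.41 FPKM, or 8.01%.

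Of the 4 genes that load the peptide, Cd74, H2-DMb1 and H2-DMb2 were lower by the fold rule and H2-DMa was within 2-fold. Cd74, the invariant chain (chromosome 18, 60803849 to 60812652), was the most abundant of all 10 genes, with 11.2 FPKM in WT and 0.372 in PU.1-/-. The level left was 3.33% of WT (1.29 to 6.85%) and rests on about 187 and 7 reads, an estimate because the gene has 2 transcripts. Cd74 stood at 1.62 times the level of H2-Ab1 in WT and at 0.291 times in PU.1-/-. Against H2-Eb1 it stood at 3.71 times in WT and 2.88 times in PU.1-/-. The PU.1-/- ratios rest on few reads, about 7 of Cd74, 20 of H2-Ab1 and 3 of H2-Eb1.

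H2-DM is a pair of an α chain, from H2-DMa, and a β chain, from H2-DMb1 or H2-DMb2. H2-DMa (chromosome 17, 34119693 to 34139101) had 1.99 FPKM in WT and 1.39 in PU.1-/-, from 40 and 32 reads. The PU.1-/- level was 69.6% of WT, with a counting interval of 42.4 to 114% that holds both no difference and a 2-fold difference. The first 3122 bases of its RefSeq span also lie in Brd2, at 66.5 and 74.5 FPKM, and no source used here states whether reads were assigned by strand. The part of Brd2 reads in the H2-DMa value was not tested.

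H2-DMb1 (34153191 to 34160229) had 1.82 and 0.351 FPKM, from about 27 and 6 reads, and was 5.17-fold lower (2.09 to 15.3). H2-DMb2 (34143229 to 34151553) was near the limit of detection at 0.252 FPKM in WT, about 4 reads, and was listed at 0 in PU.1-/-, where 3 reads would be worth 0.155 FPKM. It counts as lower by the fold rule, but a change could not be resolved at this depth. These β chain genes are close copies, and 19.1% of the 75-base windows of H2-DMb1 transcripts also occur in H2-DMb2, so that reads may have been divided between them. H2-DMa and H2-DMb1 were level in WT, at a ratio of 1.10, and stood at 3.95 in PU.1-/-.

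**Figure D2:**
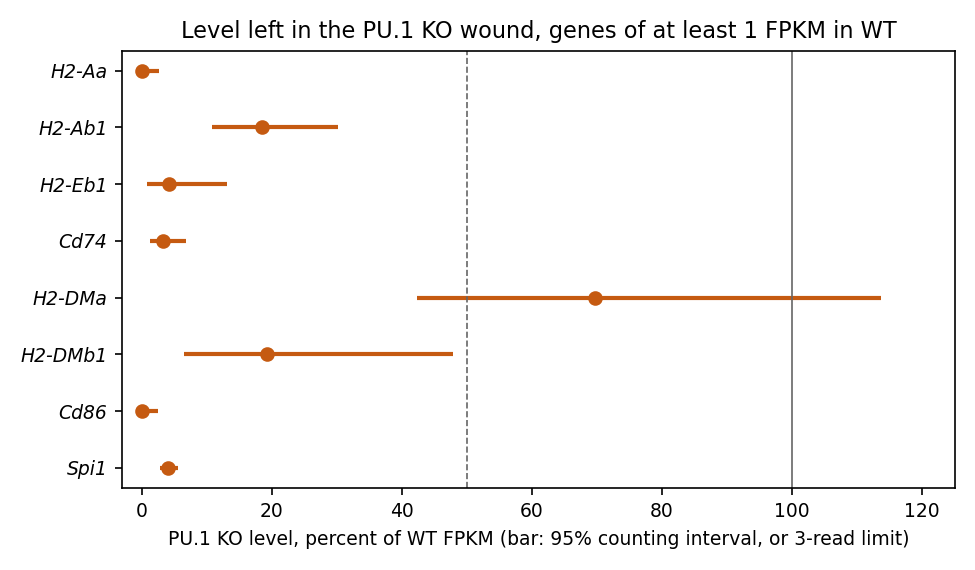
Level in the PU.1-/- library as a percent of the WT FPKM for the 7 genes with at least 1 FPKM in WT and for Spi1, with 95% counting intervals as bars, or, for genes listed at 0, a bar up to the value of 3 reads; lines mark 50 and 100%. H2-Aa, Cd86, Cd74, H2-Eb1 and Spi1 lie below 5%, H2-Ab1 at 18.5%, H2-DMb1 at 19.3% and H2-DMa at 69.6%.

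Ciita, the master regulator (chromosome 16, 10480014 to 10531064), was barely read. It had 0.0435 FPKM in WT, about 3 reads over a transcript of 6007 bases, and was listed at 0 in PU.1-/-. No difference of Ciita could be measured at this depth, although its target genes had up to 187 reads in the same WT library. Its DNA-binding partners had log2 ratios between −0.23 and 0.14, with a median of −0.02. None of the 7 factors Rfx5, Rfxap, Rfxank, Nfya, Nfyb, Nfyc and Creb1 differed 2-fold, as did few of all genes (4.34% lower and 2.32% higher). Rfx5, the RFX subunit that binds DNA, had 2.51 and 2.47 FPKM, and Nfyc of the Y box complex had 34.2 and 32.7 FPKM.

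The interferon γ pathway, the main inducer of Ciita outside professional antigen-presenting cells, was likewise within 2-fold for all 7 genes. Of all genes listed, only 4.34% were lower and 2.32% higher. Ifng itself was listed at 0 in both libraries and could not be compared. The kinase Jak1 had 52.1 and 55.2 FPKM, and the receptor chain Ifngr1 had 43.3 and 43.3 FPKM. Irf1, an interferon-induced factor that acts at the Ciita gene, had 11.2 FPKM in WT and 13.1 in PU.1-/-.

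Cd86 encodes a ligand for CD28 and CTLA-4 on T cells (chromosome 16, 36568956 to 36666158). It had 3.28 FPKM in WT, about 106 reads, and was listed at 0 in PU.1-/-, where 3 reads would have been worth 0.0813 FPKM. Its close relative Cd80 went from 2.52 to 0.0421 FPKM, about 52 reads and 1. The inhibitory ligand Cd274 (PD-L1) had 3.61 and 1.28 FPKM, a 2.82-fold difference. Of the 7 other costimulatory genes, Cd80 and Cd274 were lower and none was higher, against 4.34% lower and 2.32% higher of all genes listed. Cd40 (2.15 and 2.32 FPKM) and Icosl (7.21 and 7.58 FPKM) were within 2-fold, and Cd70, Tnfsf4 and Pdcd1lg2 lay below 0.1 FPKM in both libraries.

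Processing of antigen and invariant chain showed 1 large difference among proteases that were otherwise abundant in both wounds. Ctss, the cathepsin that makes the last cuts in the invariant chain in dendritic cells and macrophages, had 63.1 FPKM in WT, about 1005 reads, and was listed at 0 in PU.1-/-. Ctsl, the cathepsin with that role in thymic epithelium, had 439 and 383 FPKM. Of the 9 genes of the list, Ctss and Ifi30 were lower, against 4.34% of all genes listed. Ifi30, a thiol reductase, had 66.7 and 33.3 FPKM, 49.9% of the WT level, and was only just past 2-fold. The others, including Ctsd (502 and 433 FPKM), Lgmn (212 and 141 FPKM) and the cathepsin inhibitor Cst3 (393 and 376 FPKM), were within 2-fold. The median of the list was −0.30.

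March1, a ubiquitin ligase that removes class II and CD86 from the surface of dendritic cells and B cells, was 11.9-fold lower, at 2.41 and 0.201 FPKM. Its widely expressed relative March8 had 16.1 and 15.4 FPKM, and Cd83, which opposes March1, had 0.485 and 0.293 FPKM. March1 was 1 of 3 genes of class II turnover, and the only one that was lower, against 4.34% of all genes listed. Among the other class II chains, H2-Oa (0.258 and 0 FPKM, about 3 reads in WT) was counted as lower, and H2-Ob, H2-Eb2 and H2-Ea-ps stayed below 0.1 FPKM in both libraries.

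Of the 10 genes, 6 lie within 197 kb on chromosome 17 (34119693 to 34316674), interleaved with genes of class I presentation. In that stretch, Psmb8 and Psmb9, subunits of the immunoproteasome, were at 35.9% and 40.2% of the WT level, with 19.0 and 6.83 FPKM and with 4.74 and 1.90 FPKM. The peptide transporters Tap1 and Tap2, which lie beside them, were at 79.9% and 81.4%, with 10.2 and 8.16 FPKM and with 6.82 and 5.56 FPKM. Tap1 and Tap2 were thus below WT as well, but by less than 2-fold, and Brd2 was at 112%. Of the 8 class I and other neighbours on the list, Psmb8 and Psmb9 were lower and none was higher. Among all genes listed, 4.34% were lower and 2.32% higher.

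**Figure D3:**
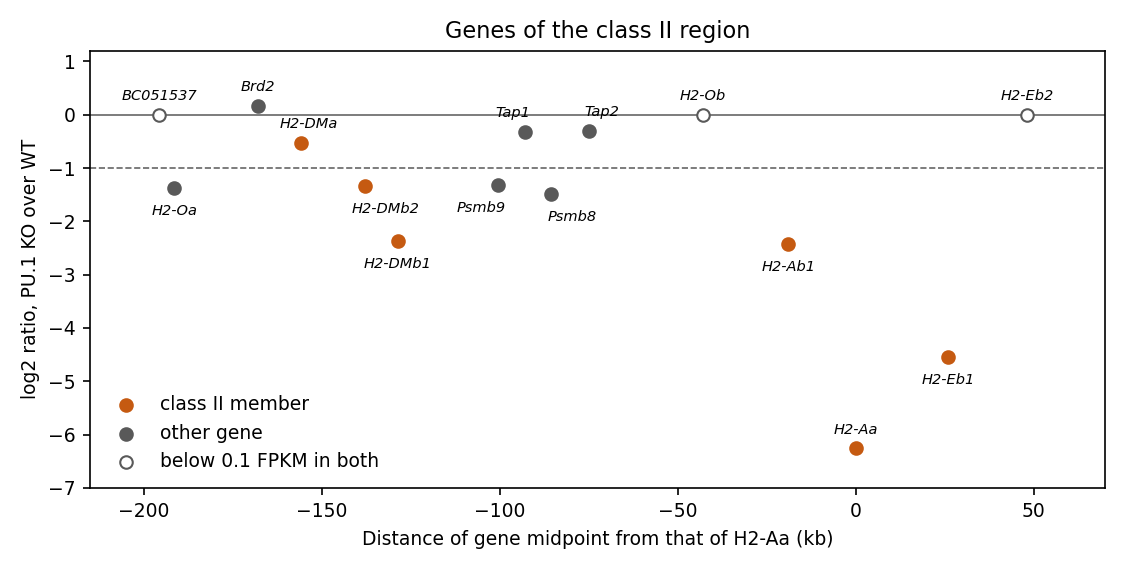
Log2 ratio (PU.1-/- over WT, values below 0.1 FPKM raised to 0.1) of 15 genes of the class II region against the distance of the gene from H2-Aa in kb. Class II members are orange, other genes are grey, open points are below 0.1 FPKM in both libraries, and the dashed line marks 2-fold lower; the lowest points are H2-Aa at −6.26 and H2-Eb1 at −4.55, while Tap1 and Tap2 lie at −0.32 and −0.30.

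Langerhans cells could not be followed by their defining gene. Cd207 (chromosome 6, 83671207 to 83677857) was listed at 0 in both libraries, where 3 reads would have been worth 0.165 FPKM in WT and 0.144 in PU.1-/-. Of the other Langerhans cell markers, Epcam (62.9 and 73.7 FPKM) and Cdh1 (69.4 and 76.2 FPKM) are shared with keratinocytes, and Ly75 was low at 0.783 and 0.518 FPKM. Id2 (61.2 and 36.8 FPKM), Runx3 (3.87 and 4.85 FPKM) and Itgax (0.132 and 0 FPKM) were counted as within 2-fold. Csf1r, the receptor that Langerhans cells need but share with macrophages, had 15.0 and 0.684 FPKM. It was the 1 lower gene among the 8 markers, against 4.34% of all genes listed. The name Langerhans cells is thus not borne out for these genes at this depth, and they are called class II genes and Cd207.

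Markers of the other cell types that carry class II moved as follows. Of 10 macrophage markers 9 were lower, against 4.34% of all genes listed. Their summed level was 557 FPKM in WT and 13.9 in PU.1-/-, with a median log2 ratio of −6.93. C1qb went from 123 FPKM to 0 and Adgre1 (F4/80) from 11.6 FPKM to 0, while Mertk was within 2-fold. Of 15 dendritic cell markers 5 were lower and 1 was higher, against 4.34% lower and 2.32% higher of all genes listed. A further 3 were below 0.1 FPKM in both libraries. The list had a median log2 ratio of −0.27. Its sum was 36.6 and 19.1 FPKM, of which Clec10a alone made up 18.2 and 0 FPKM. The lower genes included the lectins Clec10a (18.2 and 0 FPKM) and Mgl2 (0.915 and 0 FPKM), which macrophages also express. The others were Irf8 (2.92 and 0.523 FPKM), the chemokine Ccl17 (1.92 and 0 FPKM) and Ccr7 (0.294 and 0.0366 FPKM). Ccl17 and Ccr7 rest on few reads, about 8 and 7 in WT and 0 and 1 in PU.1-/-, so that the size of either difference is uncertain. Zbtb46, which endothelium also expresses, was the higher gene at 1.28 and 2.77 FPKM, and Batf3 had 7.80 and 13.2 FPKM. The other defining genes of conventional dendritic cells were close to the limit, with Clec9a at 0.290 and 0.298 FPKM, Itgax at 0.132 and 0 FPKM, Xcr1 at 0.102 and 0.0443 FPKM and Flt3 at 0 in both libraries, and gave no reading of a difference.

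B cell markers were close to the limit, with a sum of 0.583 and 0.327 FPKM over 6 genes and with Ms4a1 and Pax5 at 0 in both libraries. The part of macrophages, dendritic cells or B cells in the class II values was not tested. Markers of the cells that make up most of the skin did not differ 2-fold, and few of all genes listed did (4.34% lower and 2.32% higher). All 5 keratinocyte, 4 endothelial and 4 fibroblast markers were within 2-fold, with medians of 0.18, 0.29 and 0.26, among them Krt14 at 4659 and 5195 FPKM, Pecam1 at 65.3 and 78.7 FPKM and Dcn at 690 and 959 FPKM.

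**Figure D4:**
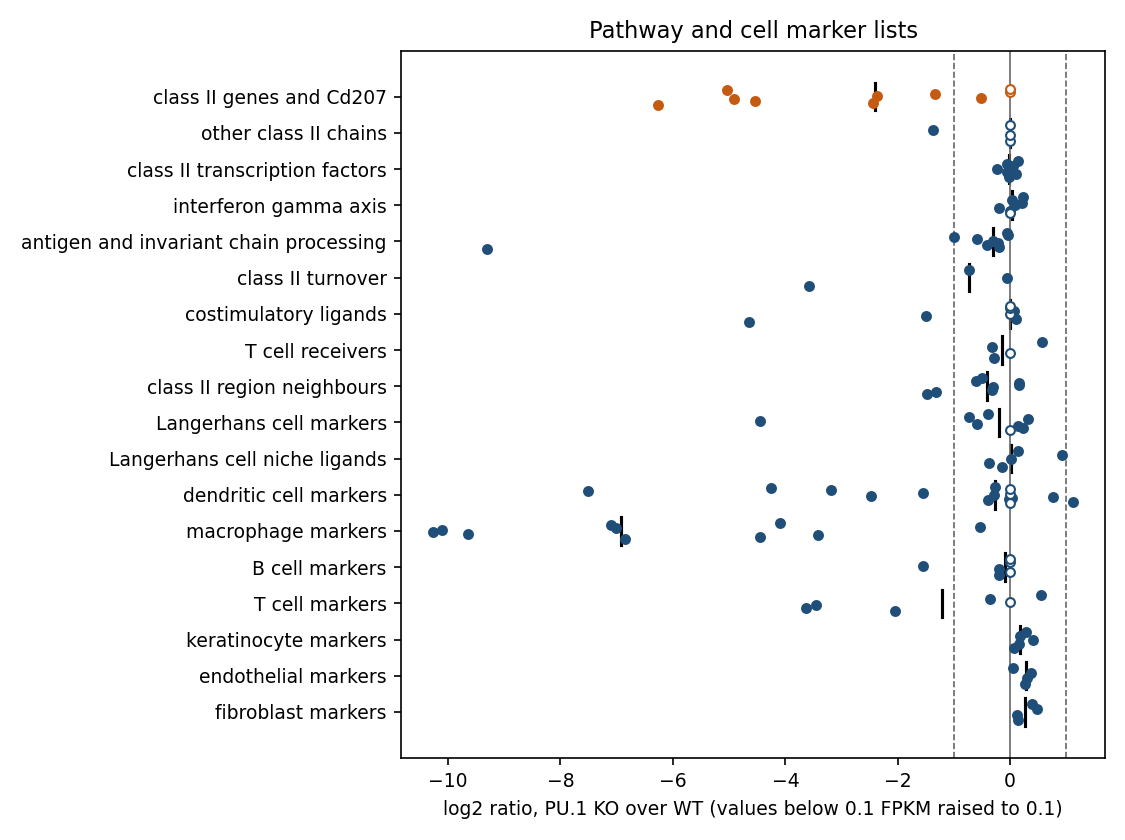
Log2 ratio (PU.1-/- over WT) of each gene of the class II genes and Cd207 (orange) and of the pathway and marker lists (blue), with a black bar at the median of a list, open points for genes below 0.1 FPKM in both libraries and dashed lines at 2-fold. The medians are −2.40 for the class II genes and Cd207 and −6.93 for macrophage markers, against −0.02 for class II transcription factors and 0.18 for keratinocyte markers.

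Set among the 12987 genes with at least 1 FPKM in WT, H2-Aa and Cd86, both listed at 0 in PU.1-/-, had the 89th and the 150th lowest ratio with the floor of 0.1 FPKM. The ratio of Cd74 was the 157th from the lowest, close to that of Spi1 at the 179th and H2-Eb1 at the 182nd. H2-Ab1 and H2-DMb1 were the 345th and the 350th, and H2-DMa the 1225th. The 3-read limits of H2-Aa and Cd86 were 2.67% and 2.48% of WT. These limits are not intervals of the kind given for Spi1 and cannot be set against it. The interval of H2-DMa included 100%.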

How the data were processed

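Total RNA of wound tissue was made into stranded mRNA libraries and sequenced as single-end reads of 75 bases. The authors mapped the reads to mm10 and deposited FPKM values, 1 library per genotype, calculated with Cuffnorm 2.2.1 by the methods, while the submitters' processing notes name TopHat2 2.1.1, Bowtie2 2.2.8, SAMtools 0.1.18 and Cuffdiff 2.2.1. No source used here names the annotation or the filters.

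Values below 0.1 FPKM were raised to 0.1, and a difference of 2-fold or more was counted as lower or higher. The 10 genes, the lists and the rule for named genes (the 10 genes, Spi1, and from each list the most abundant genes and those of at least 10 FPKM in one library and 0 in the other) were chosen with earlier results of these data known. Lesser list genes were named after their values were seen.

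The low FPKM values step by whole reads. Of the genes under 2 FPKM, 459 shared the WT over PU.1-/- ratio of equal read numbers, 1.15. Depth was the value at which genes with 1 GENCODE M21 transcript linked to RefSeq, of at least 1000 bases, came nearest to whole reads (length less a mean fragment of 200 bases). At that depth 77.7% of 1311 low values in WT and 79.2% of 1254 in PU.1-/- lay within 0.1 of a whole read. Reads of a gene are the multiple of the smallest whole pair giving its ratio that lies nearest the estimate from depth and length, or that estimate. Read numbers are thus approximate, as for Spi1, with 825 and 39 by the pair and 894 and 42 by the estimate. Intervals are exact binomial (Clopper-Pearson) at 95%, and these and the limits of 3 reads cover counting error only. The functions were tested on simulated libraries. The calculations used scipy 1.17.1, numpy 2.4.6 and pandas 2.3.3 under Python 3.11.15, and plots used matplotlib 3.10.9. Alternatives of floor, pseudocount, scaling, filter and fold threshold were tried.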

Additional observations from a re-analysis of the deposited data

How the results depend on the processing

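The number of lower genes among the 10 was 7 with each library scaled to the same FPKM sum, with the median of shared genes set to 0 and with a fold threshold of 1.5. It was 8 with a floor of 0.01 FPKM, where Ciita joined, 6 with a pseudocount of 1 FPKM, a fold threshold of 4 or a filter of at least 1 FPKM, and 5 with a floor of 1 FPKM, where H2-DMb1 had a log2 ratio of −0.86. Over all genes listed, the 1057 lower genes (4.34%) became 1778 (7.3%) with the floor of 0.01 FPKM and 463 (1.9%) with the floor of 1 FPKM. They became 461 (1.89%) with the pseudocount, and 1867 (7.67%) and 533 (2.19%) with the thresholds of 1.5 and 4. Among only the genes kept by the filter, 589 (4.45%) were lower. The median log2 ratio of −2.40 became −3.49 and −1.23 with the floors of 0.01 and 1 FPKM, −1.43 with the pseudocount, −2.36 with equal sums, −2.40 with the shared median at 0 and −4.55 over the 7 genes left by the filter. The size of a fold depended on the treatment of low values mainly for genes below 1 FPKM in PU.1-/-. Cd74, for example, had a log2 ratio of −4.91, and −3.48 with the floor of 1 FPKM. H2-Ab1 kept −2.43 with all 3 floors and had −1.79 with the pseudocount. No log2 ratio of a gene changed sign. No paired analysis was possible because each genotype has 1 library, and no replicate could be left out. At a depth of 13780000 and 15780000 fragments, H2-DMb2, Ciita, H2-Oa and Cd207 could not be compared.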

Other observations

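None of the 5 ligands that draw or keep Langerhans cells and their precursors in the skin differed 2-fold, and their median log2 ratio was 0.01. Few of all genes listed differed 2-fold (4.34% lower and 2.32% higher). Il34, the keratinocyte ligand of the receptor Csf1r on which Langerhans cells depend, had 6.77 FPKM in WT and 6.12 in PU.1-/-. Csf1, the other ligand of that receptor, had 12.1 and 12.1 FPKM, Tgfb1 had 35.4 and 27.1 FPKM and Cxcl14 had 178 and 197 FPKM. The chemokine Ccl20 differed most, with 0.734 and 1.39 FPKM from about 6 and 13 reads. The receptor Csf1r, by contrast, had 15.0 and 0.684 FPKM.

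Genes of the T cells that read class II were scarce in both libraries. Cd4, the coreceptor for class II, had 0.125 FPKM in WT and 0 in PU.1-/-, and Lag3, an inhibitory receptor that binds class II, had 0.402 and 0.595 FPKM. Of 6 T cell markers 3 were lower, against 4.34% of all genes listed. These were the CD3 chains of the T cell receptor, with Cd3g at 1.24 and 0 FPKM, Cd3d at 1.10 and 0 FPKM and Cd3e at 0.412 and 0 FPKM. They rest on about 14, 21 and 7 reads in WT. The kinase Lck had 1.43 and 1.11 FPKM, Thy1, which fibroblasts also express, had 114 and 166 FPKM, and Cd8a was listed at 0 in both libraries.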
